A study of Mus musculus with 8 samples.

Results

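The Tsc22d genes form a family of 4 in the mouse, Tsc22d1 to Tsc22d4, and Tsc22d3 is the gene known as GILZ, the glucocorticoid-induced leucine zipper. Their 4 rows were taken by gene symbol from a table of estimated counts for 35852 genes, and their 35 annotated transcripts from tables of 119414 transcripts. RNA-seq was done on bEnd3 cells, an established line of mouse brain endothelial cells, after 24 h with 5 µM corticosterone, the main glucocorticoid hormone of mice (4 libraries), or in culture medium (4 libraries). All cells had grown overnight in serum-containing DMEM before that, and no genotype or vehicle is named for either group. The treatment protocol of the medium samples names corticosterone too, so the groups follow the titles and the treatment field. The labels do not say whether the replicates were separate cultures, so the p-values measure only the spread between these libraries, which may be technical.

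As background, TSC22 proteins share a TSC box and a leucine zipper, through which they pair with each other. The short forms are little more than that domain, and the long forms carry extended N-terminal regions that bind the NRBP pseudokinases and link the family to the WNK kinases and cell volume control. GILZ is a classical target of the glucocorticoid receptor and is known for binding NF-kappaB and AP-1, and Tsc22d1 was first cloned as a gene stimulated by TGF-beta.

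The gene table held 19746273 to 46206883 estimated counts per library. Corticosterone replicates 1 and 2 stood apart in how the counts were made. Their effective length, the length kallisto uses to scale a transcript, equalled the transcript length plus 1 in 100% of 61001 transcripts of 1000 nt or more, while the other 6 libraries had effective lengths with a median 340 to 360 nt shorter than the transcript. Gene counts differed between 2 corticosterone libraries by a chi-square per gene of 47.4 to 107 when one of them was replicate 1 or 2, against 3.39 for replicates 3 and 4 and 2.18 to 4.73 for pairs of medium libraries. Values are therefore given for all 8 libraries and for the 6 without these 2. The endothelial identity of the cells was checked on 10 marker genes, which were all measured and summed to 8068 to 8579 CPM (counts per 1000000 of the TMM-scaled library) in medium and 8884 to 9173 with corticosterone.

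The family resemblance is visible in the coding DNA. The 75-nt in-frame window most alike in the 4 genes is printed below, from GENCODE M21 on GRCm38, with capitals where all 4 genes have the same base. It spans the end of a short coding exon and the start of the last coding exon, at chr14:76505286-76506479 (+) for Tsc22d1, chr3:58459371-58460070 (+) for Tsc22d2, chrX:140541045-140542116 (-) for Tsc22d3 and chr5:137758721-137759129 (+) for Tsc22d4, each region including an intron.
Tsc22d1: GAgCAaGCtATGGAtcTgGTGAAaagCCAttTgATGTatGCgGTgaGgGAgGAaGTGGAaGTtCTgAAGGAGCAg
Tsc22d2: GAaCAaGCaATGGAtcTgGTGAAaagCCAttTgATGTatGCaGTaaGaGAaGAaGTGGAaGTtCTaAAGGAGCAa
Tsc22d3: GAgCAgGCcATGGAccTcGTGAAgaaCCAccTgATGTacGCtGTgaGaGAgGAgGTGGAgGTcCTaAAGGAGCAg
Tsc22d4: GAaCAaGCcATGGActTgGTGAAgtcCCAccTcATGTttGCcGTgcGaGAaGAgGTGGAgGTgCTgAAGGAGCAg
In this window 51 of 75 bases are shared by all 4 genes, and identity between pairs runs from 76.0% to 89.3%, the highest being Tsc22d1 with Tsc22d2. Elsewhere the genes are distinct enough for reads to be told apart: between 98.6% (Tsc22d3) and 99.98% (Tsc22d2) of a member's 31-mers, the word length used here, occur in no other annotated gene, and the members share 2 such words with each other, between Tsc22d1 and Tsc22d2. No other annotated gene overlaps any of the 4 loci.

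At the gene level all 4 members changed, 3 upward and 1 downward, in a quasi-likelihood test over 13272 genes in which 40.1% of genes were called at an adjusted p under 0.05 (19.5% higher and 20.6% lower with corticosterone). Read against that share, a call for a single member is common, and the size of the change is what separates the members. In these bulk samples, less RNA per cell and fewer cells that express a gene cannot be told apart.

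Tsc22d3 had the largest change in the family. Its level was 14.7, 14.9, 13.6 and 14.6 CPM in medium replicates 1 to 4, and 56.9, 53.9, 59.9 and 52.8 CPM in corticosterone replicates 1 to 4. Every corticosterone library was above every medium library, and replicates 1 and 2 lay within the range of replicates 3 and 4. The means were 14.4 ± 0.59 and 55.9 ± 3.18 CPM (SD, n = 4), a 3.87-fold rise (95% interval 3.59 to 4.17, log2 1.95 ± 0.05 SE, edgeR adjusted p = 1.52e-11). A call with a rise of at least 3-fold was made for 1.09% of all genes tested.

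Tsc22d1, the most abundant member, rose 1.62-fold. Its level was 332, 344, 323 and 335 CPM in medium and 539, 522, 554 and 541 CPM with corticosterone. The groups did not overlap, which was the case for 39.9% of all genes tested (means 334 ± 8.76 and 539 ± 13.1 CPM, log2 0.69 ± 0.03 SE, edgeR adjusted p = 7.63e-10).

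Tsc22d4, also called THG-1, rose by the smallest factor, 1.15-fold. Its level was 98.1, 99.8, 102.0 and 97.9 CPM in medium and 114.5, 116.2, 113.0 and 115.5 CPM with corticosterone. The spread within each group was narrow and the groups did not overlap (log2 0.21 ± 0.02 SE, 95% interval of the fold 1.11 to 1.20, edgeR adjusted p = 1.54e-05).

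Tsc22d2 was the one member that fell, to 0.758-fold. Its level was 76.6, 74.8, 79.5 and 78.2 CPM in medium and 57.6, 59.9, 58.5 and 58.2 CPM with corticosterone. All corticosterone libraries lay below all medium libraries (log2 -0.40 ± 0.03 SE, 95% interval of the fold 0.727 to 0.790, edgeR adjusted p = 1.55e-07).

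**Figure D1:**
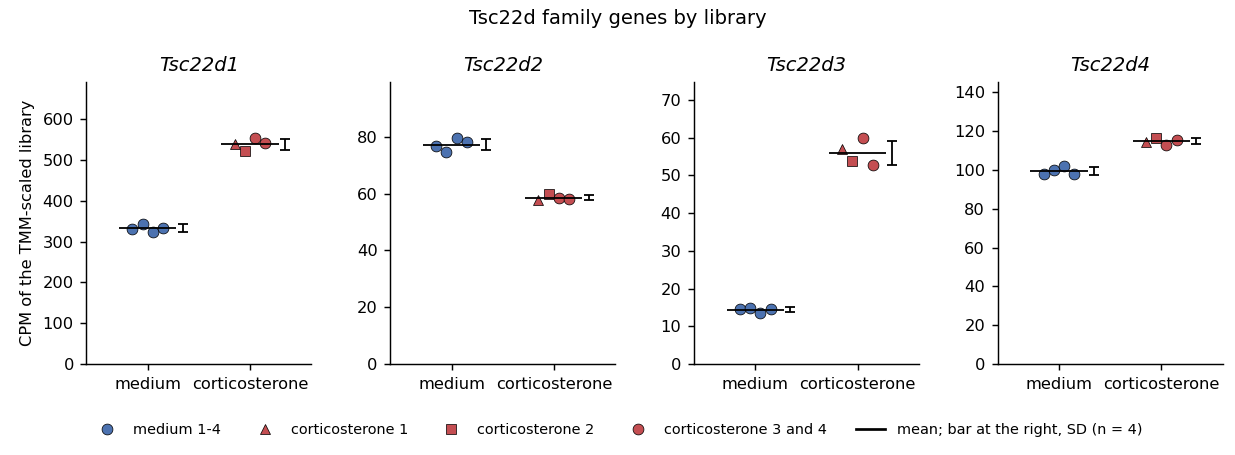
CPM of the TMM-scaled library (y axis, from 0) of each member by group, with 1 point per library, the mean as a line and the SD (n = 4) as a bar at its right; triangles and squares are corticosterone replicates 1 and 2. The groups do not overlap in any panel, as was the case for 39.9% of all genes tested, and Tsc22d3 moves from 14.4 to 55.9 CPM on average.

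Without corticosterone replicates 1 and 2 the folds were 3.90 for Tsc22d3, 1.65 for Tsc22d1, 1.15 for Tsc22d4 and 0.758 for Tsc22d2, and all 4 kept their calls, where 36.4% of 13639 genes were called. Levels of different genes can be compared per length, on the TPM scale of the 6 libraries that share 1 kind of effective length. In medium the order of TPM was Tsc22d1 (355 ± 19.1), Tsc22d4 (95.1 ± 2.21), Tsc22d2 (24.3 ± 0.94) and Tsc22d3 (12.8 ± 0.70; SD, n = 4). With corticosterone the TPM of Tsc22d3 was 51.2 and 45.3 in replicates 3 and 4, and that of Tsc22d2 was 17.8 and 16.8. GILZ thus stood last of the family per length in medium and above Tsc22d2 in both of these corticosterone libraries. Neighbours in either order were separated by more than the spread of the libraries.

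GILZ is annotated with 6 transcripts on the minus strand of chromosome X. Tsc22d3-201 encodes the canonical short GILZ in 411 coding nt from a start at chrX:140543187. Tsc22d3-203 encodes a long form with 603 coding nt from a start at chrX:140600659, far upstream. Tsc22d3-202 starts at chrX:140542668, inside the first intron of Tsc22d3-201, and has no annotated coding sequence. Tsc22d3-205 is a retained-intron form that starts near Tsc22d3-201, and Tsc22d3-204 (339 coding nt) and Tsc22d3-206 (a processed transcript) start between the long and the short form.

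**Figure D2:**
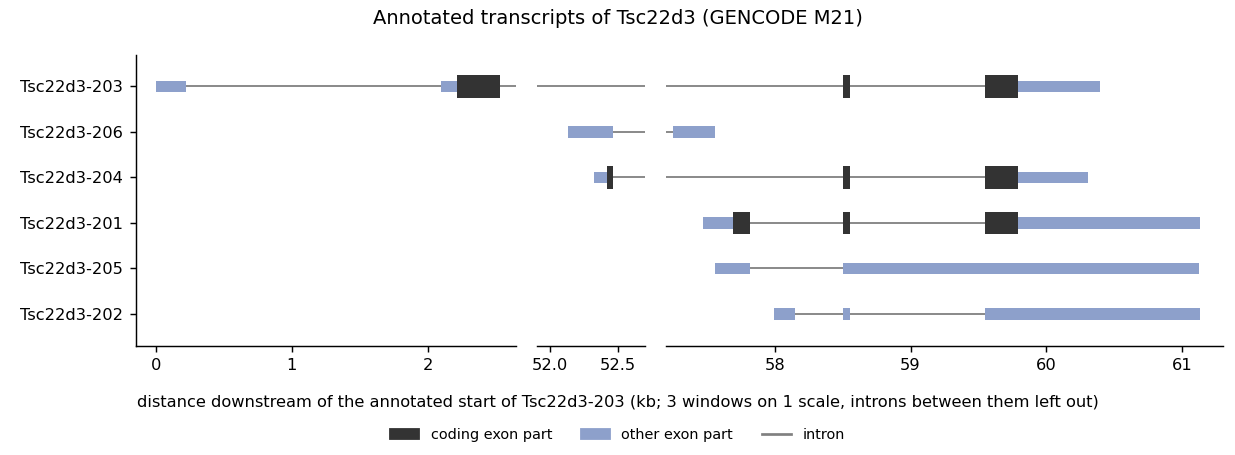
Annotated transcripts of Tsc22d3 by distance in kb from the start of Tsc22d3-203 (x axis, 3 windows on 1 scale), with coding exon parts as tall dark boxes, other exon parts as low light boxes and introns as lines. The 4 transcripts that contain the short internal exon join it to different upstream exons.

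Tsc22d3-201, Tsc22d3-203, Tsc22d3-204 and Tsc22d3-202 splice different exons onto one shared exon at chrX:140542105-140542156. The stretches below show that junction, since it is what sets the isoforms printed here apart. Lower case is the exon of the isoform itself (coding for the first 3) and capitals are the 52 nt of the shared exon. Tsc22d3-205 makes the same junction as Tsc22d3-201, so the printed stretch does not tell Tsc22d3-205 from Tsc22d3-201. The lower-case stretches lie at chrX:140542846-140542967, chrX:140598128-140598249, chrX:140548196-140548245 and chrX:140542511-140542632.
Tsc22d3-201: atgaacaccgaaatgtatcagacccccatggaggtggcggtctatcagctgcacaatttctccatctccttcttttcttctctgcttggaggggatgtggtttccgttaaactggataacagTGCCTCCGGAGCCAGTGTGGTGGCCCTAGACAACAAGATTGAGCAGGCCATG
Tsc22d3-203: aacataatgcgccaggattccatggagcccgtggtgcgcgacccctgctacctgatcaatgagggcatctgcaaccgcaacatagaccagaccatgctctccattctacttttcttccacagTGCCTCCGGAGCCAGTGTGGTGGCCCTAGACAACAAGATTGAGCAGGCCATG
Tsc22d3-204: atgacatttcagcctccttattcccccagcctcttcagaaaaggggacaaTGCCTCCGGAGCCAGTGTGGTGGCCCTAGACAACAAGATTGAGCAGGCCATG
Tsc22d3-202: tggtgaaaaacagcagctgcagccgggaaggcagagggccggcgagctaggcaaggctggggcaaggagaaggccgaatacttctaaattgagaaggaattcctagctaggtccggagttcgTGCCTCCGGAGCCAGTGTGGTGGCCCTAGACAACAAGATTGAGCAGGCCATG
How well reads separate these forms differs. Tsc22d3-203 has 650 31-mers found in no other annotated transcript (42.7% of its own) and Tsc22d3-202 has 157 (8.9%). Tsc22d3-201 has 31 (1.6%), and much of its first exon recurs in Tsc22d3-205 and its last exon in Tsc22d3-202.

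The short and the long coding form both rose. Tsc22d3-201 was at 6.82, 6.60, 6.94 and 6.69 CPM in medium replicates 1 to 4 and at 24.3, 36.9, 43.7 and 38.1 CPM in corticosterone replicates 1 to 4. All corticosterone libraries were above all medium libraries, and corticosterone replicate 1 was the lowest of its group. Such separation was counted over all genes but not over all transcripts, so it has no frequency beside it here. The rise was 5.28-fold (95% interval 3.92 to 7.10, edgeR adjusted p = 0.000535) in a test of 39985 transcripts of which 3.15% were called, and 6.04-fold (5.30 to 6.88, adjusted p = 4.3e-05) in the 6 libraries, where 5.24% of 43417 were called.

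Tsc22d3-203, the long GILZ, was at 0.477, 1.39, 0.581 and 0.944 CPM in medium and at 6.30, 10.6, 8.93 and 8.15 CPM with corticosterone. The groups did not overlap, and the medium values rest on few reads, 99.6 estimated counts over the 4 libraries. The rise was 9.92-fold (95% interval 5.21 to 18.9, edgeR adjusted p = 0.00462), and 10.0-fold (5.08 to 19.8, adjusted p = 0.0073) in the 6 libraries. The intervals for the long and the short form overlap.

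Tsc22d3-202 did not pass the test in either set of libraries. It was at 6.67, 6.74, 5.90 and 6.75 CPM in medium and at 19.2, 6.11, 5.36 and 4.83 CPM with corticosterone. Corticosterone replicate 1 alone was high, replicate 2 lay inside the range of the medium libraries, and replicates 3 and 4 lay below it. The fold was 1.36 (95% interval 0.633 to 2.93, edgeR adjusted p = 0.812) in 8 libraries and 0.782 (0.630 to 0.970, adjusted p = 0.245) in the 6, so its direction turned with corticosterone replicate 1.

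The other 3 transcripts were low. Tsc22d3-205, which keeps an intron, ranged from 0.107 to 0.357 CPM in medium and from 0.4601 to 1.12 CPM with corticosterone, without overlap (4.36-fold, 95% interval 1.97 to 9.63, edgeR adjusted p = 0.0795), and it passed with DESeq2 (adjusted p = 0.00273), without medium replicate 1 (adjusted p = 0.049) and in limma on log2(TPM + 1) of the 6 libraries (adjusted p = 0.0457). Tsc22d3-204 had 7.02 CPM in corticosterone replicate 1 and at most 0.0195 CPM in each of the other 7 libraries, among them the 3 other corticosterone libraries. Tsc22d3-206 was at 0.0302 to 0.102 CPM with corticosterone and had a count of 0 in every medium library, where a count of 0 allows up to 3 counts.

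**Figure D3:**
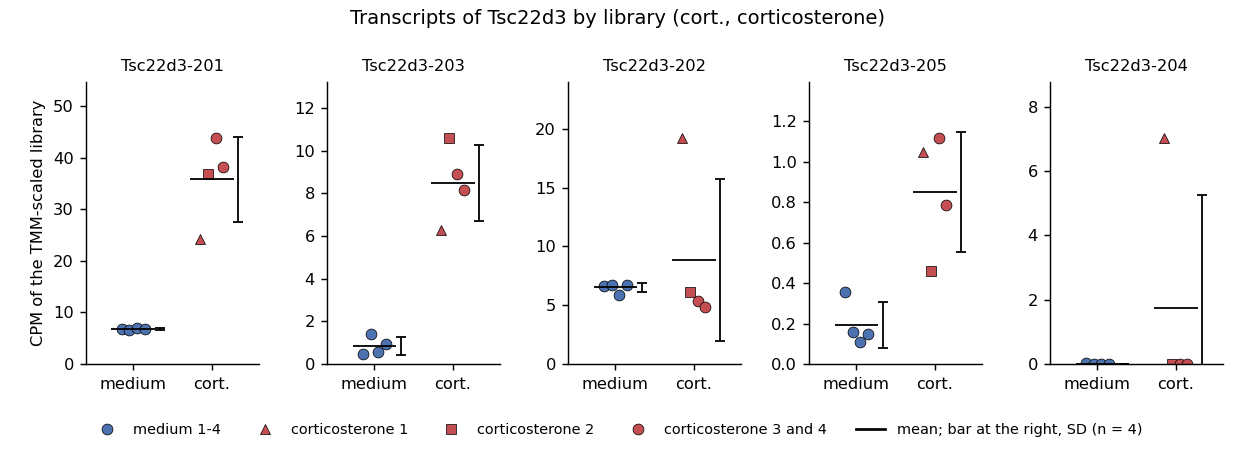
CPM of the TMM-scaled library (y axes, from 0, different in each panel) of 5 Tsc22d3 transcripts by group, with 1 point per library, the mean as a line and the SD (n = 4) as a bar at its right. Tsc22d3-201 and Tsc22d3-203 separate the groups, while the high points of Tsc22d3-202 and Tsc22d3-204 come from corticosterone replicate 1 (triangle); the SD bar of Tsc22d3-204 is drawn from 0 up.

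The make-up of GILZ RNA is given as shares of the gene's estimated counts. How often groups do not overlap in such shares was not counted over all genes. Tsc22d3-202 took 46.5%, 45.3%, 43.6% and 46.4% of the gene's estimated counts in medium replicates 1 to 4, and 33.2%, 11.3%, 9.06% and 9.30% in corticosterone replicates 1 to 4. Every corticosterone library, replicate 1 included, was below the medium range. Tsc22d3-203 took 3.32%, 9.36%, 4.30% and 6.50% in medium and 10.9%, 19.6%, 15.1% and 15.7% with corticosterone, again without overlap. Tsc22d3-201 took 47.6%, 44.3%, 51.3% and 46.1% in medium and 41.9%, 68.1%, 73.9% and 73.4% with corticosterone. Here corticosterone replicate 1 was the lowest of all 8 libraries and the other 3 were above the medium range.

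A test of the shares themselves was made on start groups, transcripts of a gene whose 5′ ends chain within 300 nt, each start group against its gene (diffSpliceDGE of edgeR). In 8 libraries none of the 3 tested Tsc22d3 starts was called, where 0.215% of 16281 start groups were (adjusted p = 0.311 for Tsc22d3-202 and 0.524 for Tsc22d3-203, with unadjusted p = 0.00617 and 0.0201). Without corticosterone replicate 1 alone Tsc22d3-202 was called, at -2.20 on the log2 scale relative to its gene (adjusted p = 0.00101). In the 6 libraries all 3 were called, where 0.527% of 17843 were: Tsc22d3-202 changed by -2.31 on the log2 scale relative to its gene (adjusted p = 9e-05), the start of Tsc22d3-201 and Tsc22d3-205 by 0.63 (adjusted p = 0.00904) and Tsc22d3-203 by 1.38 (adjusted p = 0.0457). On simulated data this test made more calls of unchanged starts than its threshold allows. A limma fit on the log2 odds of the shares, added after the data were seen, called the fall of the Tsc22d3-202 share in the 6 libraries (-3.04, adjusted p = 0.0268) and not the rises of the start of Tsc22d3-201 and Tsc22d3-205 (adjusted p = 0.137) or of Tsc22d3-203 (adjusted p = 0.741). That fit made no call at all on the simulated data, changed starts included, so a missing call from it carries little information.

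Taken by start group without regard to shares, 13% of 23654 start groups were called in 8 libraries and 14.1% of 25173 in the 6. The start of Tsc22d3-201 and Tsc22d3-205 rose 5.23-fold (95% interval 3.94 to 6.95, edgeR adjusted p = 0.000119) and that of Tsc22d3-203 rose 9.88-fold (5.37 to 18.2, adjusted p = 0.00103).

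RefSeq promoters, 300 nt each on GRCm38.p6, were available for 3 Tsc22d3 starts. None of these windows covers the annotated start of the canonical short GILZ, so the promoter of that form was not searched. The promoter of the long GILZ is shown because its transcript had the largest rise among the family's transcripts that passed the test; these 113 nt at chrX:140600660-140600772 (minus strand) lie upstream of the GENCODE start of Tsc22d3-203. Capitals mark the one match to AGAACA, a hexamer found in glucocorticoid receptor binding elements, here read as its reverse complement.
Tsc22d3-203 promoter: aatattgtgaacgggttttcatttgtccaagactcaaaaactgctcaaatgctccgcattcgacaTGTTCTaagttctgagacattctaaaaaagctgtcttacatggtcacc
AGAACA on either strand was found in 1 of the 3 Tsc22d3 promoters and 1 of 5 Tsc22d1 promoters, and in 19.0% of all 32851 promoters. The receptor's palindrome, GNACA and TGTNC with 3 bases between them, which AGAACA can overlap, was found in 0.5% of all promoters and TGTTTAC, a FOXO-type motif, in 3.6%, and neither in the 8 promoters of Tsc22d3 and Tsc22d1. A match is a description of the letters in these windows and not a site of binding.

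Tsc22d1 is annotated with 16 transcripts on the plus strand of chromosome 14. Short forms such as Tsc22d1-201 (429 coding nt, start at chr14:76504478) carry most of its RNA, and the long forms Tsc22d1-202 (3231 coding nt, start at chr14:76415587) and Tsc22d1-204 (2985 coding nt, start at chr14:76414961) begin far upstream. The start group of the short form held 87.3% to 88.4% of the gene's counts in medium and 90.1% to 94.5% with corticosterone. The usage test did not call this difference in 8 libraries (0.069 on the log2 scale relative to the gene, diffSpliceDGE unadjusted p = 0.806). Nor did it in the 6 (0.068, unadjusted p = 0.258). The start group of Tsc22d1-201, Tsc22d1-206 and Tsc22d1-214 was at 290.9, 303.8, 287.6 and 297.6 CPM in medium and at 513.6, 474.4, 511.5 and 498.3 CPM with corticosterone. The groups did not overlap, which was not counted over all start groups (1.69-fold, 95% interval 1.61 to 1.78, edgeR adjusted p = 6.32e-06). The fold was 1.71 in the 6 libraries.

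The long forms of Tsc22d1 did not pass the test. Tsc22d1-202 was at 13.96, 13.2, 13.5 and 13.5 CPM in medium and at 12.9, 15.4, 15.5 and 14.4 CPM with corticosterone, with overlapping groups (1.07-fold, 95% interval 0.914 to 1.26, edgeR adjusted p = 0.793). Tsc22d1-204 was at 4.52, 6.49, 6.37 and 4.93 CPM in medium and at 9.96, 7.03, 6.49 and 6.60 CPM with corticosterone, where replicate 1 stood above the rest (1.35-fold, 95% interval 0.953 to 1.91, adjusted p = 0.497). The share of Tsc22d1-202 in the gene was 3.84% to 4.30% in medium and 2.35% to 2.93% with corticosterone. Those shares do not overlap, but the usage test did not call the difference in 8 libraries (-0.60 on the log2 scale relative to the gene, adjusted p = 1) or in the 6 (-0.56, adjusted p = 0.495).

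Within the short start, single transcripts cannot be compared over all 8 libraries. Tsc22d1-201 was at 282.8, 296.8, 279.4 and 290.8 CPM in medium and at 468.0, 500.6 and 488.7 CPM in corticosterone replicates 2 to 4, but at 140.4 CPM in replicate 1. In that library Tsc22d1-214, which differs in its first exon, took 376 CPM, against 0 to 3.65 CPM in each of the other 7. Tsc22d1-201 and Tsc22d1-214 have 54 and 80 31-mers found in no other transcript, 3.1% and 5.5% of their own. For Tsc22d1-201 the fold was 1.39 in 8 libraries (95% interval 0.764 to 2.53, edgeR adjusted p = 0.705) and 1.72 in the 6 (1.63 to 1.81, adjusted p = 0.000116), and it passed without corticosterone replicate 1 alone (log2 0.77, adjusted p = 0.00014). The other 14 transcripts held at most 4.30% of the gene's counts in any library.

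Tsc22d4 is annotated with 9 transcripts on the plus strand of chromosome 5. Tsc22d4-202 (1161 coding nt) and Tsc22d4-203 (1527 coding nt) share their first coding exons and end differently. The conserved 75-nt window printed above lies in Tsc22d4-202, Tsc22d4-205 and Tsc22d4-209 and is absent from Tsc22d4-203, which splices to more distant last exons. Tsc22d4-202 was at 63.9, 68.4, 73.4 and 67.4 CPM in medium, at 70.8 and 74.0 CPM in corticosterone replicates 3 and 4, at 44.1 CPM in replicate 1 and at 3.67 CPM in replicate 2. Tsc22d4-203 was at 14.1, 13.9, 11.5 and 13.4 CPM in medium, and at 33.3, 79.7, 20.9 and 18.5 CPM in corticosterone replicates 1 to 4. Tsc22d4-203 was the higher of the 2 in replicate 2 alone, and all corticosterone libraries were above all medium libraries for it.

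In the 6 libraries Tsc22d4-203 rose 1.48-fold (95% interval 1.23 to 1.79, edgeR adjusted p = 0.04) and Tsc22d4-202 did not pass the test (1.06-fold, 0.965 to 1.17, adjusted p = 0.586). The call of Tsc22d4-203 was lost in limma fits on log2 TPM of the same 6 libraries (adjusted p = 0.0794 and 0.0824). In 8 libraries neither passed in edgeR: the fold of Tsc22d4-203 was 2.88 (1.33 to 6.24, adjusted p = 0.222; DESeq2 adjusted p = 0.0317), and that of Tsc22d4-202 was 0.705 (0.214 to 2.33, adjusted p = 0.875), the opposite direction. The common upstream start of Tsc22d4-202, Tsc22d4-203 and Tsc22d4-206 was at 88.0 to 92.4 CPM in medium, at 100.3 and 103.1 CPM in corticosterone replicates 3 and 4, and at 86.2 and 94.4 CPM in replicates 1 and 2. It rose 1.13-fold in the 6 libraries (1.08 to 1.19, adjusted p = 0.00704) and did not pass in 8 (1.07-fold, 0.976 to 1.17, adjusted p = 0.353), though it did without corticosterone replicate 1 alone (adjusted p = 0.0341). The internal start of Tsc22d4-205 and Tsc22d4-209, short forms that carry the conserved window, was at 9.14 to 10.6 CPM in medium, at 12.7 and 12.0 CPM in corticosterone replicates 3 and 4 and at 28.2 and 21.4 CPM in replicates 1 and 2. It rose 1.26-fold in the 6 libraries (1.10 to 1.44, adjusted p = 0.0403) and did not pass in 8 (1.89-fold, 1.20 to 2.98, adjusted p = 0.0818), though it did with DESeq2 (adjusted p = 0.00916) and without corticosterone replicate 4 (edgeR adjusted p = 0.0471). Most of it is Tsc22d4-209 (288 coding nt), at 7.97, 9.18, 9.97 and 9.06 CPM in medium and at 27.4, 20.8, 11.5 and 10.6 CPM with corticosterone, where replicates 1 and 2 were the high ones.

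Tsc22d2 is annotated with 4 transcripts on the plus strand of chromosome 3, and its 2 long coding forms share a start. Tsc22d2-203 (2235 coding nt) was at 56.0, 55.2, 60.3 and 58.8 CPM in medium and at 41.8, 42.8, 41.7 and 41.4 CPM with corticosterone. It fell to 0.728-fold without overlap of the groups (95% interval 0.672 to 0.790, edgeR adjusted p = 0.00291). Tsc22d2-201 (2307 coding nt) was at 18.0, 18.5, 17.7 and 18.3 CPM in medium and at 15.2, 15.4, 15.1 and 15.1 CPM with corticosterone. These groups did not overlap either, but the transcript did not pass the test (0.839-fold, 0.744 to 0.946, adjusted p = 0.182), although DESeq2 called it in the same 8 libraries (log2 -0.23, adjusted p = 0.00388). Corticosterone replicates 1 and 2 did not stand apart for either form. Together the 2 forms held 96.7% to 98.8% of the gene in every library, and their common start fell to 0.751-fold (0.718 to 0.785, adjusted p = 6.62e-05).

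**Figure D4:**
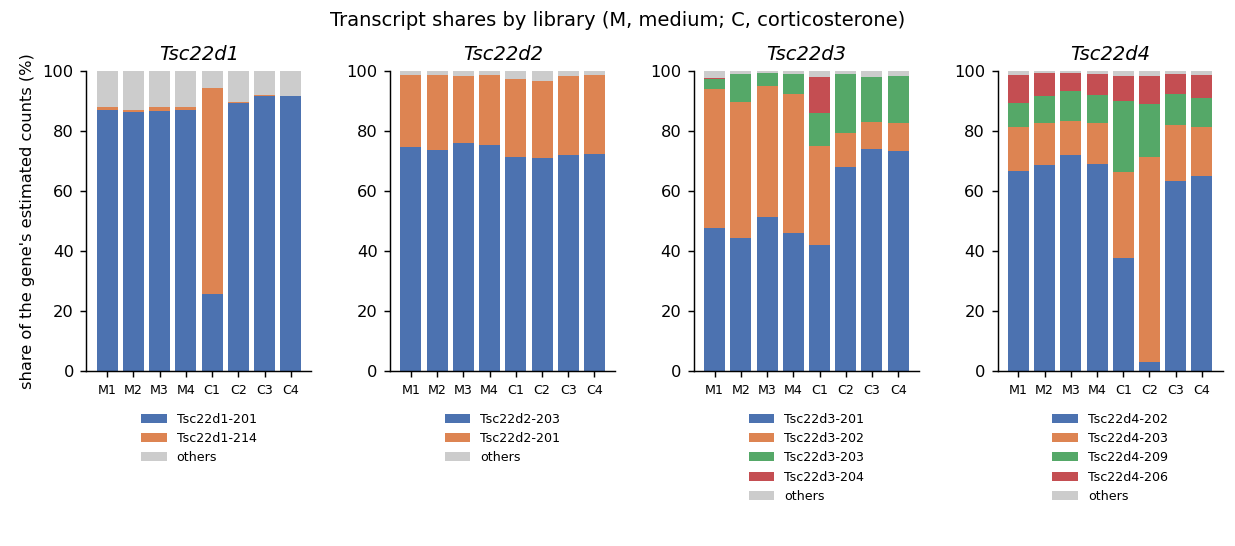
Share of each gene's estimated counts (y axis, %) taken by its transcripts, 1 stacked bar per library (M1 to M4, medium; C1 to C4, corticosterone). In Tsc22d3 the Tsc22d3-202 part falls from 43.6% or more in medium to 33.2% or less with corticosterone. Bar C1 of Tsc22d3 differs from C2 to C4, with 33.2% of Tsc22d3-202 against 9.06% to 11.3%. Bar C1 of Tsc22d1 and bars C1 and C2 of Tsc22d4 differ from the others of their gene.

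**Figure D5:**
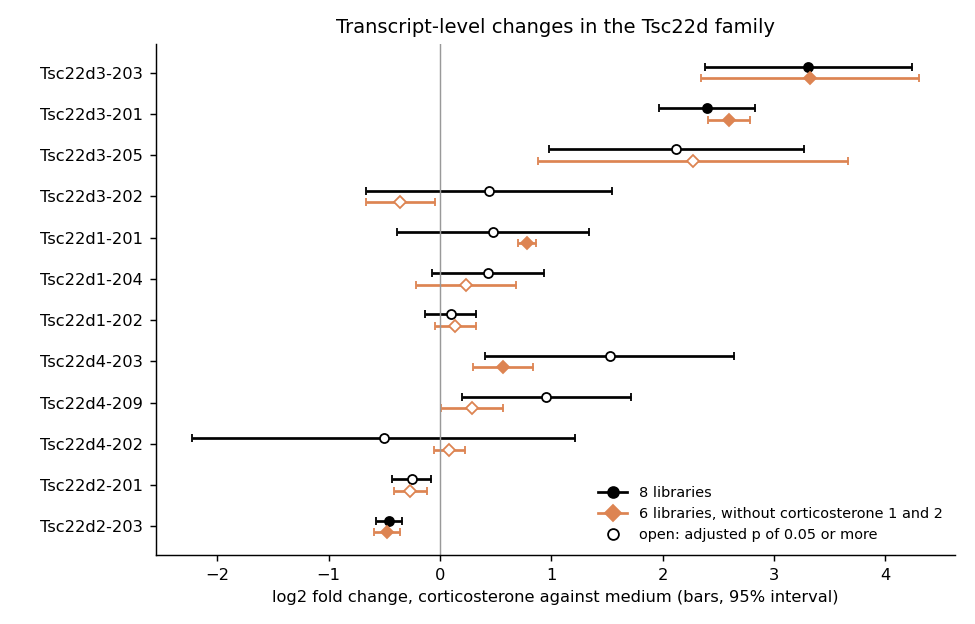
Log2 fold change, corticosterone against medium (x axis), with 95% interval, for 12 transcripts in 8 libraries (black) and in the 6 without corticosterone replicates 1 and 2 (orange); open symbols have an adjusted p of 0.05 or more. Tsc22d3-203, Tsc22d3-201 and Tsc22d3-205 lie far to the right in both, the last with open symbols. Tsc22d3-202 and Tsc22d4-202 change sides of 0.

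Counted over the family, 21 of the 35 transcripts passed the filter on low counts in 8 libraries. Of these, Tsc22d3-201 and Tsc22d3-203 rose and Tsc22d2-203 fell, where 3.15% of all transcripts tested were called. In the 6 libraries 22 passed, and 4 rose and 1 fell, with Tsc22d1-201 and Tsc22d4-203 added to the rises, where 5.24% of all were called. These counts leave out transcripts too low to be tested in either group. How often groups do not overlap was counted among all genes, but not among all transcripts, start groups or shares.

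The genes whose profile over the 8 libraries was most like each member's were found among 9843 genes of at least 5 CPM on average, by the root mean square difference of log2 CPM after subtracting the medium mean. They are given as a description of likeness in the change from medium alone, and their levels can differ. For Tsc22d3 they included Lama3, a laminin chain, and Pdlim1, a PDZ and LIM adaptor, at differences of 0.08 and 0.10. For Tsc22d1 they were Jade2, Ube2g2 and Ly6e (0.02 to 0.04). For Tsc22d4 they were Vars, Triobp and Iars (each 0.02), of which Vars and Iars are tRNA synthetases. For Tsc22d2 they were Kif18b, a mitotic kinesin, and the replication enzymes Fen1 and Lig1 (0.02 to 0.03).

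Of 7 transcription factors known to act on Tsc22d3, 5 fell, 1 rose and 1 did not pass, in 8 libraries and in the 6 alike. Of all genes tested, 20.6% were called lower and 19.5% higher in 8 libraries, against 18% and 18.4% in the 6. The median log2 fold change of the 7 factors was -0.20 in 8 libraries, against -0.00 over all genes tested. Foxo1, a forkhead factor, fell to 0.647-fold (156 ± 5.00 to 101 ± 1.06 CPM, edgeR adjusted p = 1.78e-09). Nr3c1, the glucocorticoid receptor, fell to 0.792-fold (adjusted p = 3.65e-06), and Foxo3 to 0.917-fold (adjusted p = 0.00171). The other falls were Foxo4 and Pparg, and the rise was Nr3c2, the mineralocorticoid receptor, at 1.74 ± 0.43 and 2.98 ± 0.51 CPM; these 3 names were picked after their values were seen.

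Known binding partners of GILZ moved both ways. Of 15 listed, 14 were tested, 5 rose and 7 fell (median log2 fold change -0.08), with 5 and 6 in the 6 libraries. Over all genes tested in 8 libraries, 19.5% were called higher and 20.6% lower, against 18.4% and 18% in the 6. Jun, an AP-1 subunit, fell to 0.584-fold (106 ± 5.82 to 61.6 ± 2.64 CPM, edgeR adjusted p = 2.75e-08). Fos, its partner, rose 2.70-fold from a low level (1.16 ± 0.19 to 3.11 ± 0.32 CPM, adjusted p = 1.64e-05), and Cebpb, a bZIP factor, rose 3.52-fold (13.3 ± 0.77 to 46.7 ± 6.69 CPM, adjusted p = 5.06e-07). Of the NF-kappaB subunits, Rela fell to 0.878-fold (adjusted p = 0.0001) and Nfkb1 to 0.924-fold (adjusted p = 0.00173), and the remaining falls included Trp53, Mdm2 and Smad2. The other rises, like these falls named after their values were seen, were Nras, Nfkb2 and Cebpa, at 1.08-fold, 1.09-fold and 2.25-fold, the last from 0.302 ± 0.056 CPM.

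The NRBP and WNK partners of the long TSC22 forms were split. Of 14 listed, 12 were tested, 4 rose and 4 fell (median log2 fold change 0.03), and 3 and 2 in the 6 libraries. Among all genes tested in 8 libraries, 19.5% were called higher and 20.6% lower, against 18.4% and 18% in the 6. Wnk1, the WNK kinase with the highest level here, rose 1.44-fold (764 ± 4.89 to 1104 ± 20.6 CPM, edgeR adjusted p = 8.51e-10). Slc12a2, the sodium-potassium-chloride cotransporter NKCC1, fell to 0.705-fold (239 ± 6.94 to 169 ± 4.95 CPM, adjusted p = 3.16e-08), and Slc12a4, the potassium-chloride cotransporter KCC1, to 0.843-fold (adjusted p = 3.91e-05). The further rises included Nrbp1 and Oxsr1, and the further falls were Slc12a7 and Klhl3, all named after their values were seen.

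Of 10 TGF-beta and SMAD genes tied to Tsc22d1, 2 rose and 4 fell (median log2 fold change -0.08), and 1 and 3 in the 6 libraries. The shares over all genes tested in 8 libraries were 19.5% called higher and 20.6% lower, against 18.4% and 18% in the 6. Tgfb1 rose 1.53-fold (122 ± 3.60 to 186 ± 3.46 CPM, edgeR adjusted p = 2.51e-09). Tgfb2, another ligand, fell to 0.295-fold (15.3 ± 1.63 to 4.50 ± 0.39 CPM, adjusted p = 1.03e-08), and Smad7, an inhibitory SMAD, to 0.699-fold (adjusted p = 0.000678). Tgfb3 was the other rise and Tgfbr2 and Smad2 the other falls, named after their values were seen.

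As a yardstick, 13 of 13 other genes known as glucocorticoid-induced rose, where 19.5% of all genes tested were called higher. Their median log2 fold change was 1.64, which is the value of Ddit4. The 13 were called in the 6 libraries too, where 18.4% of all genes tested were called higher. The list was chosen with earlier results of these data known, so this count is not an independent test. Zbtb16, one of the 13 genes, had a count of 0 in every medium library, and its fold does not move that median. Mt1 and Mt2 also rose from near 0, with means of 0.027 and 0.0053 CPM in medium. Fkbp5, a co-chaperone of the receptor, went from 39.4 ± 1.92 to 269 ± 3.06 CPM, Ddit4, an inhibitor of mTORC1 signalling, from 110 ± 2.96 to 341 ± 14.9 CPM (3.11-fold), and Sgk1, a kinase, from 188 ± 2.62 to 442 ± 13.2 CPM (2.35-fold). The 3.87-fold of Tsc22d3 lay between the folds of Cebpd (3.32) and Per1 (4.42), 2 genes of this list picked by their values.

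Calls among cell type markers stand beside 19.5% of all genes tested called higher and 20.6% called lower in 8 libraries. In the 6 libraries these shares were 18.4% and 18%. Among markers of other cell types, most were at or near 0. Of 5 fibroblast markers 2 were tested and both fell, Pdgfra from 18.4 ± 1.01 to 4.87 ± 0.12 CPM and Col1a1 from 2.28 ± 0.30 to 1.08 ± 0.33 CPM, and the 5 summed to 19.9 to 21.9 CPM in medium and 5.75 to 6.69 CPM with corticosterone. Of 8 pericyte and smooth muscle markers 3 were tested and 2 fell, Acta2 and Pdgfrb (1 of them in the 6 libraries), with a sum of 2.12 to 3.62 and 1.67 to 2.61 CPM. Of 6 neural and glial markers 2 were tested and Tubb3 rose, with a sum of 0.516 to 0.855 and 1.38 to 1.78 CPM and with Aqp4 and Olig2 at 0 in all libraries. Of 5 leukocyte and microglial markers 1 was tested and did not pass. The part of these markers in the changes of the Tsc22d genes was not tested. Of the 10 endothelial markers 6 rose and 3 fell, led by Esam (1.44-fold), Cldn5 (1.32-fold) and Tek (1.26-fold). The falls, named after their values were seen, were Kdr (0.913-fold), Erg (0.908-fold) and Pecam1 (0.941-fold).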

How the data were processed

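The data are 8 poly(A)-selected, directional RNA-seq libraries from bEnd3 cells, 4 per group. Per the submitters' processing notes, bcl2fastq and kallisto 0.46.1 were used with the builds mm10 and GRCm38 (index: not given in the sources used here). Deposited by the authors were estimated counts per gene, not normalized, and kallisto tables of estimated counts and TPM per transcript. Gene and transcript identifiers were matched to GENCODE M21 (100% of genes, 97.3% of transcripts), and each member's gene count equalled the sum of its transcripts within 0.5 counts.

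These estimated counts, rounded, went into edgeR 4.0.16 under R 4.3.3 (TMM, filterByExpr, robust quasi-likelihood F test, group as the single term, Benjamini-Hochberg over all features kept, threshold 0.05) on genes, transcripts and start groups (5′ ends chained within 300 nt); diffSpliceDGE tested start usage. The SE is the log2 fold change divided by the square root of F. DESeq2 1.42.0 and limma 3.58.1, on log2(TPM + 1) and log2(TPM + 0.1) in 6 libraries, were alternatives, with a replicate block, each library left out, no filter, library size alone and 50-nt start groups. On simulated data the gene fit recovered most of the changed genes, and the transcript fit of 8 libraries few of the changed transcripts. The members, gene lists and alternatives were chosen with earlier results of these data known. The text gives values per library for transcripts with at least 10% of a gene in a group mean, the 3 genes of smallest p in each list and the 3 genes most like each member. Some genes that this rule or these lists cover are not reported here. Counts of 0 allow up to 3 counts, which covers counting error alone, since PCR copies were not marked by molecular identifiers.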

Additional observations from a re-analysis of the deposited data

Results flagged for a closer look

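Of 62 groups of 4 libraries tested for a member gene, transcript or start group, 6 had a library far from the other 3, with a gap above Dixon's 95% critical share of the group's range; chance gives about 1 group in 20. Corticosterone replicate 1 accounted for 4 of them. It had 376 CPM of Tsc22d1-214 (0 to 2.39 CPM in the other 3), 140 CPM of Tsc22d1-201 (468 to 501 CPM), 9.96 CPM of Tsc22d1-204 (6.49 to 7.03 CPM) and 19.2 CPM of Tsc22d3-202 (4.83 to 6.11 CPM). Corticosterone replicate 2 had 2.89 CPM of Tsc22d1-206 (1.52 to 1.61 CPM in the other 3). Medium replicate 3 had 5.90 CPM of Tsc22d3-202, below 6.67 to 6.75 CPM in the other 3. At the gene level none of the 4 members had such a library. Corticosterone replicates 1 and 2 are the libraries of other effective lengths; the part of that difference in these values was not tested.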

How the results depend on the processing

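All 60 alternative fits of the 4 genes kept the direction and the call. Transcripts moved more. Of 194 alternative transcript values 171 kept direction and side of the threshold, 10 newly passed it, 1 lost its call and 12 turned direction; of 123 for start groups 116 kept both, 5 newly passed and 2 turned; of 132 for usage 125 kept both, 5 newly passed and 2 turned. The cause was not tested. Turned log2 changes were those of transcript Tsc22d1-214 (-1.40 in the 6 libraries, -1.12 to 5.30 leaving out 1 library, -0.40 with the replicate block, -1.31 and -2.86 on log2 TPM with pseudocounts 1 and 0.1), of transcript Tsc22d3-202 (-0.36, -0.25 to 0.64 leaving out 1 library, -0.32 and -0.37 on log2 TPM), of its start group (-0.35, -0.27 to 0.62), of transcript Tsc22d4-202 (0.0853, and 0.0655 and 0.0678 on log2 TPM) and of the usage of Tsc22d2-201 with Tsc22d2-203 (0.0042 in the 6 libraries, 0.26 on the log2 odds there). Usage newly passed in the 6 libraries for Tsc22d3-202 (-2.31, -3.04 on the log2 odds, -2.20 to -1.25 leaving out 1 library), for Tsc22d3-201 with Tsc22d3-205 (0.63) and for Tsc22d3-203 (1.38).

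Called genes numbered 5327, and 2851 and 2839 on log2 TPM. Called transcripts numbered 1260, against 2276 in the 6 libraries, 674 to 1672 leaving out 1 library, 2853 with DESeq2 and 2055 and 2053 on log2 TPM. Called start groups numbered 3069, and 4632 with DESeq2. Called usages numbered 35, against 94 in the 6 libraries, 11 to 198 leaving out 1 library, 277 with no filter and 55 with 50-nt start groups. With the replicate block 179 transcripts, 1590 start groups and 4 usages were called, and Tsc22d2-203 lost its call (-0.46, edgeR adjusted p = 0.131). Same-numbered deviations correlated at -0.0594 to 0.0297. No corticosterone library correlated best with the medium library of its own number, and of the medium libraries only replicate 2 correlated best with its own number (0.0297). Corticosterone replicates 1 and 2 stood far from the rest of their group, which could hide a pairing. Whether the numbers pair the libraries therefore cannot be told from these correlations.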
